A study of Mus musculus with 18 samples.

Results

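The genes described here encode zinc finger proteins and carry a symbol that begins with *Zfp*, *Zbtb* or *Zkscan*. They numbered 133 of the 12241 genes measured in mouse embryos at E11.5 (embryonic day), with 115 *Zfp*, 14 *Zbtb* and 4 *Zkscan* genes. The deposited tables carry no symbols, so a gene was found through 1 of 2 shortened supplementary lists that pair identifiers with symbols. One list was ordered by low translational efficiency (TE) in the mesoderm and gave 79 of the genes, called mesoderm-listed below. The other list was ordered by the difference in TE between forelimb and neural tube and gave 82, called tissue-listed. A set of 28 genes was in both lists. Other zinc finger genes of the tables had no symbol in these lists and are not analysed here. The genes were thus chosen by measured TE, and mesoderm TE of mesoderm-listed genes and every forelimb or neural tube value of tissue-listed genes is given as a description. Each list as a whole is tested in the tissues that did not choose it, beside all genes. Over all genes, log2 TE of mesoderm replicates correlated at 0.53 to 0.82 with neural tube and at 0.79 to 0.90 with forelimb. A list chosen by low TE in 1 tissue thus tends to low TE in the others. Other genes of the lists were not counted. A share above that of all genes is therefore not shown to be particular to zinc finger genes. The 28 genes of both lists count in both, and single values of theirs are a description in all 3 tissues, without a p-value.

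A zinc finger is a short fold in which a zinc ion is held between cysteine and histidine residues, and most proteins of this kind carry a row of fingers that reads DNA. Many *Zfp* and *Zkscan* genes also encode a KRAB domain, which recruits the co-repressor Trim28 and silences chromatin, often at transposable elements. *Zbtb* proteins carry a BTB domain, through which they pair and bind co-repressors of the Ncor family. In the embryo, members of these families are known for roles in the patterning of the skeleton, in neuronal differentiation and in the timing of germ layer programmes.

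Ribo-Seq and RNA-Seq were made in parallel from 3 tissues, with 3 replicates of each library type and 18 libraries in all. The mesoderm was the GFP+ fraction sorted by FACS from R26-mTmGflox/+; Tg(T-cre)1LWD/J/+ embryos, in which T-Cre marks cells that descend from the primitive streak. It is therefore a mixture of many mesodermal derivatives. From FVB embryos of the same stage, both the neural tube (NT), from the level of the hindlimb up to the rhombomeres, and the forelimb buds (FL) of each embryo were dissected. All tissues were handled in cycloheximide, which holds ribosomes on mRNA. Ribo-Seq counts ribosome-protected fragments (RPFs) on the coding sequence (CDS), RNA-Seq counts fragments of the mRNA, and the log2 ratio of RPFs to mRNA, centred on the median of all genes, is the log2 TE used throughout. A value of 0 is thus the median gene of that tissue.

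Finger genes resemble one another in sequence, and the authors kept only reads that mapped to 1 place. For this reason 3 stretches of 29 nt, about the length of an RPF, are shown that occur letter for letter in the CDS of several of the genes. A read that lay wholly within such a stretch could not be placed, while a longer read that ran past it may have been. Capitals mark 11 letters common to the first pair, which lie in the stretch that links neighbouring fingers.
Finger link shared by *Zfp113*, *Zfp426*, *Zfp558*, *Zfp59*, *Zfp60* and *Zfp850*: cacACTGGAGAGAAgccctatgaatgtaa
Finger link shared by *Zfp763*, *Zfp868*, *Zfp932* and *Zfp933*: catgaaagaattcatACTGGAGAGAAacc
Stretch outside the fingers shared by *Zfp26*, *Zfp426*, *Zfp560* and *Zfp846*: gtgatgctggagaactaccagaacctggc
On GRCm38, the first lay at chr9:20470146-20470174 on the minus strand in *Zfp426* and at chr7:27748491-27748519 on the plus strand in *Zfp60*, in the last exon and within the CDS of both. The second lay at chr5:110009305-110009333 on the plus strand in exon 4 of 4 of *Zfp932*, which held 2 copies. The third lay at chr9:20441337-20441365 on the minus strand in exon 7 of 10 of *Zfp26*. The 11 letters ACTGGAGAGAA, searched on the coding strand, were present in the CDS of 61 of the 131 genes that matched the GENCODE annotation (46.6%). They were in 203 of 662 mouse coding genes with 2 or more fingers (30.7%) and in 268 of 21481 coding genes (1.25%). A match describes the letters only.

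The part of the CDS that cannot be told apart from other genes was small for most of the genes. The median share of 29-nt windows found in another coding gene was 0.53%, and 19 of 131 genes had 5% or more. It reached 76.8% in *Zfp932*, so that its values, and those of other genes with many shared windows, rest on the remainder of the CDS. With windows of 40 nt the share in *Zfp932* was 63.6%. The authors selected longer fragments for mRNA than for RPFs, so such genes may lose more RPFs than mRNA reads. The effect on TE was not tested. The annotated genes held a median of 11 fingers, with a range of 0 to 36, and 78 had 10 or more. Their CDS was 1938 nt in the median, against 1710 nt for the 662 genes with 2 or more fingers and 1194 nt for all coding genes. A search for the KRAB domain, which undercounts it, found 65 genes, of which 63 were *Zfp* genes. By chromosome, 35 genes lay on 7, 17 on 17, 14 on 9 and 10 on 11.

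The depth on the genes of the tables ranged from 11000015 to 50136443 reads per library. The genes were mostly of low abundance. Their median mRNA level was 206 normalized reads per kb of CDS in the mesoderm, 282.5 in NT and 238 in FL. The most abundant per kb were *Zfp771* in the mesoderm with 2765 and *Zfp277* in NT and FL with 2696 and 2601. With 10 or fewer reads, the RPFs of 12 genes in mesoderm Ribo-Seq replicate 2, of 13 in FL replicate 2, of 7 in FL replicate 1 and of 5 in NT replicate 3 were too few for a precise TE.

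The Ribo-Seq libraries of replicate 3 of NT and of FL stood apart from those of replicates 1 and 2. Across all genes, log2 reads of NT Ribo-Seq replicates 1 and 2 correlated at 0.989, and those with replicate 3 at 0.933 and 0.934. In FL the values were 0.976 for replicates 1 and 2, and 0.886 and 0.896 with replicate 3. The difference in log2 TE between FL and NT of equal number correlated at 0.82 between numbers 1 and 2, but at -0.27 and -0.29 with number 3. The log2 TE of FL replicate 3 correlated at 0.76 and 0.78 with FL replicates 1 and 2, and at 0.58, 0.84 and 0.79 with NT. That of NT replicate 3 correlated at 0.50 and 0.76 with NT replicates 1 and 2, and at 0.76, 0.79 and 0.79 with FL. In log2 reads, both Ribo-Seq libraries stayed closer to their own tissue. The cause was not tested. NT RNA-Seq replicate 1 also differed from its partners, at 0.946 and 0.949 against 0.970. Most tissue markers matched the labels in the Ribo-Seq libraries: *Dcx* and *Nes*, of neurons and neural progenitors, summed to 36682 to 39601 normalized reads in NT Ribo-Seq and 1769 to 2995 in FL Ribo-Seq. The 4 limb bud and mesoderm markers summed to 1006 to 1906 in NT and 10736 to 23934 in FL. Of these, *Tcf15* did not separate the tissues, at 210, 190 and 235 RPFs in NT and 263, 315 and 184 in FL. In replicate 3, *Msx1* moved towards the other tissue, at 502, 569 and 1151 in NT and 7289, 9500 and 3624 in FL, and so did *Snai1*. *Epcam*, the 1 of 6 epithelial markers found, measured 60.9 to 187 normalized reads in NT Ribo-Seq and 1215 to 1899 in FL Ribo-Seq. Its mRNA measured 659, 96.0 and 107 in NT and 604, 537 and 690 in FL, so that NT RNA-Seq replicate 1 lay within the FL range. In the same library *Tcf15*, a somite marker, was at 436 normalized reads against 125 and 53.0, and *Dcx* at 2675 against 7953 and 6797. The summed mRNA of the neural tube markers was nevertheless higher in every NT library, at 17436 to 29556 against 4668 to 5567 in FL. The part of these markers in the results was not tested, and counts without NT replicate 1 are given below. Results that rest on NT and FL are given with and without replicate 3.

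As a description, since listing by NT and FL enters it, the 130 zinc finger genes of the NT and FL table took 4243, 4196 and 2601 of each 1000000 RPFs in NT replicates 1, 2 and 3. In FL they took 1674, 1681 and 2454. The gap between the tissues was wide in replicates 1 and 2 and nearly closed in replicate 3. In RNA-Seq their share of 1000000 reads was 5000, 6951 and 5994 in NT and 5008, 4990 and 5407 in FL, and the tissues overlapped.

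**Figure D1:**
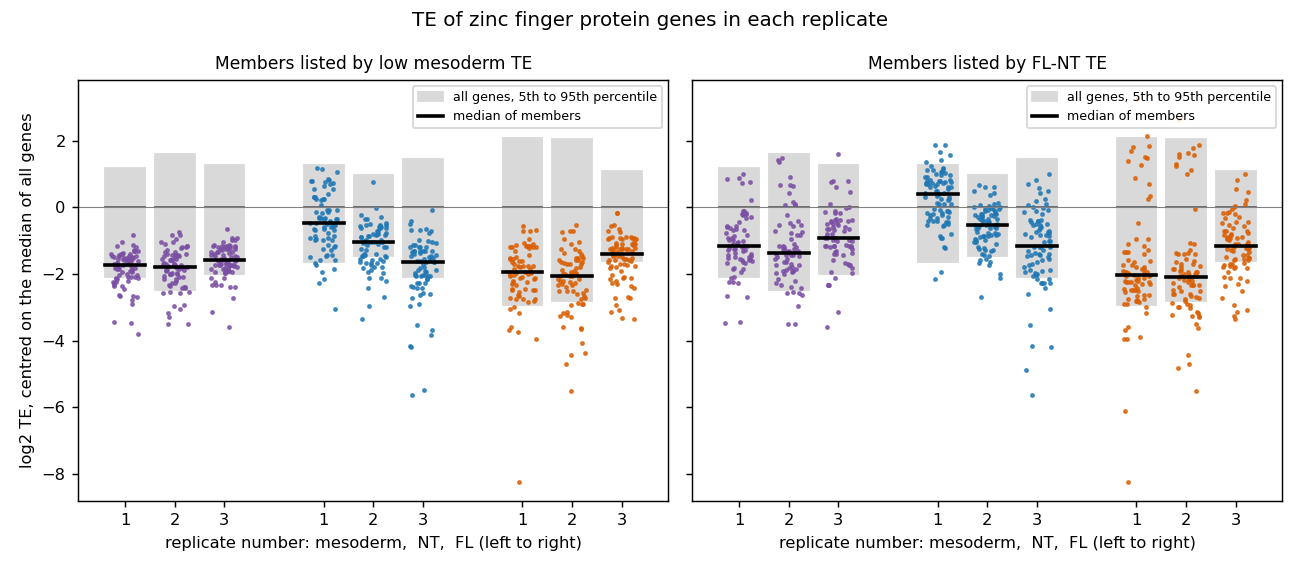
Each point is the log2 TE (y axis, centred on the median of all genes) of 1 zinc finger gene in 1 replicate (x axis), for mesoderm-listed genes on the left and tissue-listed genes on the right; black lines are medians, grey boxes run from the 5th to the 95th percentile of all genes. Mesoderm-listed genes lay below 0 in every FL replicate, with medians of -1.95, -2.06 and -1.40, and in NT their medians were -0.48, -1.05 and -1.65.

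The question of the first comparison was whether zinc finger genes that were listed for a tissue difference were also poorly translated in the mesoderm. Of the 82 tissue-listed genes, 72 were in the mesoderm table, and 19 of them (26.4%) were TE-low, that is at least 3-fold below the median gene with an adjusted p under 0.05. Among all genes 10.9% were TE-low. None of the 72 was TE-high, against 1.17% of all genes. Their median log2 TE was -1.09, and 64 lay below 0, as did 50.0% of all genes by the centring. At an adjusted p under 0.05 with no fold threshold, 55 lay below the median and 5 above, where 34.2% and 32.0% of all genes did so. Without the replicate block in the fit these were 20 and 3, where 23.0% and 16.9% of all genes did so. The 19 were genes of both lists, and none of the 44 genes found through the tissue list alone was TE-low, which the listing itself sets, since genes of low mesoderm TE were in the mesoderm list.

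The mesoderm values are given by the sign of the fitted FL minus NT difference in TE, which for all 82 tissue-listed genes was the same with and without replicate 3. The 61 genes with higher TE in NT had a median log2 TE of -1.34 in the mesoderm, and 60 lay below 0. The 11 genes with higher TE in FL had a median of 0.23. Mesoderm TE correlated at 0.79 to 0.90 with FL over all genes, so the split enters both medians and the values of single genes. The same holds for the first comparison, since most tissue-listed genes had higher TE in NT. Of these 11, *Zfp593*, *Zfp706*, *Zfp622*, *Zfp830* and *Zfp385a* were above the median gene in the mesoderm, by 1.05, 1.04, 1.00, 0.98 and 0.71 log2 units, with adjusted p from 0.000556 to 0.0036 in limma. *Zfp593* and *Zfp622* encode proteins of ribosome assembly, and *Zfp830* a protein linked to splicing and the cell cycle. The values of the 11 genes in NT and FL follow with their class.

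In the NT, the 76 mesoderm-listed genes present in the NT and FL table were again on the low side. All 76 lay below the median gene, with a median log2 TE of -1.11, and 13 (17.1%) were TE-low, where 4.13% of all genes were. None was TE-high, against 0.436% of all genes. At an adjusted p under 0.05 with no fold threshold 39 lay below the median, against 15.1% of all genes. This count was 31, 22 and 19 without NT replicate 1, 2 or 3, where 8.33%, 7.54% and 8.11% of all genes passed, and 18 and 8 without replicate 1 or replicate 2 of both tissues, where 4.22% and 2.81% passed. The number of TE-low genes also depended on the libraries. It was 20, 8 and 6 without NT replicate 1, 2 or 3, where 4.01%, 3.74% and 2.95% of all genes were TE-low. It was 14 and 6 without replicate 1 or replicate 2 of both tissues, where 2.98% and 2.40% were, and 7 without replicate 3 of both tissues, when 3.53% of all genes were called and 67 of 76 lay below 0.

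In the FL, 54 of the same 76 genes (71.1%) were TE-low, where 13.4% of all genes were, and none was TE-high, against 6.25%. All 76 lay below the median gene and 74 did so at an adjusted p under 0.05, against 29.5% of all genes. Without replicate 2 of both tissues this count was 45, against 10.8% of all genes. Their median log2 TE was -1.85. The 2 genes that missed this threshold were *Zfp873*, at -2.14, and *Zfp365*, at -1.18 with an adjusted p of 0.265 in limma. Of the 48 genes that were mesoderm-listed alone, 27 were TE-low in FL and 11 in NT, and of the 28 in both lists 27 and 2. Without replicate 3 of both tissues, 60 were TE-low, where 18.2% of all genes were. The spread of TE over all genes was also wider in FL replicates 1 and 2, with a 5th percentile of -2.93 and -2.82, than in FL replicate 3, with -1.61.

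**Figure D2:**
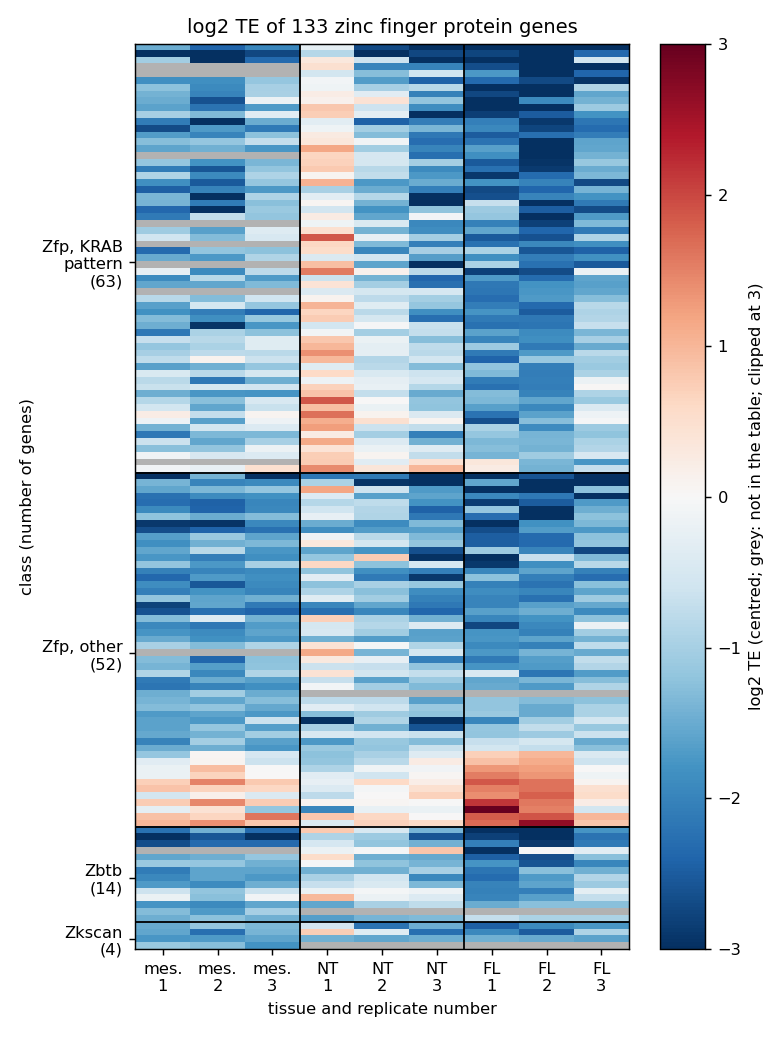
Each row is 1 of the 133 genes, sorted within its class by FL TE, and each column a tissue and replicate (mes., mesoderm); colour gives log2 TE, centred on the median gene and clipped at 3, and grey marks a gene outside the table. The 2 *Zfp* genes with no annotation are counted among the other *Zfp* genes, and the red block at the lower end of that class holds the 11 tissue-listed genes with higher TE in FL.

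A single fit over both tissues asked whether the TE of a gene differed between FL and NT. None of the 76 mesoderm-listed genes passed an adjusted p under 0.2 with at least a 2-fold change in limma, where 0.276% of all genes were called lower in FL and 0.125% higher. At an unadjusted p under 0.05 in limma, 14 were lower and 0 higher. This count is a description, without the share of all genes, and the 76 include the 28 genes listed for this difference. edgeR called 0 and DESeq2 called 6 lower in FL, where DESeq2 called 2.55% of all genes lower and 5.08% higher. The fitted difference was below 0 for 68 of 76 genes, with a median of -0.78, against 49.5% of all genes. Over all genes, mesoderm TE correlated at 0.79 to 0.90 with FL and at 0.53 to 0.82 with NT. The listing by low mesoderm TE thus enters the sign of this difference, and all genes are not an equal reference for it. This holds for the gene classes below as well. The 28 genes of both lists, which were listed for this difference, were all below 0 with a median of -1.36. Of the 48 that were mesoderm-listed alone, 40 were below 0 with a median of -0.48. The replicate numbers disagreed. The median difference was -1.52 for number 1, -0.98 for number 2 and 0.29 for number 3. Without replicate 3 of both tissues, 18 of these 48 genes (37.5%) were called lower in FL and 0 higher, where 22.3% of all genes were called lower and 20.7% higher. The 28 genes of both lists were all called lower, which the listing enters, so that the count over the 76 was 46 (60.5%). Leaving out FL replicate 3 alone or NT replicate 3 alone gave 28 of the 76 genes each. In the fit without FL replicate 3, 19.3% of all genes were called lower.

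The mRNA of most of these genes did not show a difference of that kind. Of the 76, 3 had at least 2-fold less mRNA in FL at an adjusted p under 0.05, and 0 had more, where 9.49% of all genes were called lower and 7.82% higher. The 3 were *Zbtb20*, *Zfp811* and *Zbtb18*, all genes of both lists, and of the 48 mesoderm-listed alone none was called. The median difference was -0.02, with 39 of 76 genes below 0, against 48.3% of all genes. Without replicate 3 of both tissues 4 had less mRNA and 1 more, where 9.66% and 8.06% of all genes did. In tissue samples, a change in the number of cells that express a gene and a change in mRNA per cell cannot be told apart. RPFs were lower in FL for 22 of the 76 (28.9%) and higher for 1, where 17.8% of all genes were called lower and 14.9% higher. Of the 48 mesoderm-listed alone, 7 (14.6%) were lower, which is below the share of all genes. The median RPF difference was -0.82 over the 76 and -0.49 over the 48. The RPF count depended on the libraries as well: it was 41 of 76 (53.9%) without replicate 3 of both tissues, when 26.0% of all genes were called lower and 24.1% higher, 36 without NT replicate 3 (20.0% of all genes), and 9 to 11 without FL replicate 1, FL replicate 2, NT replicate 1 or NT replicate 2 (13.0% to 14.2%). It was 6 without replicate 1 of both tissues and 6 without replicate 2 of both (10.3% and 9.23%).

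**Figure D3:**
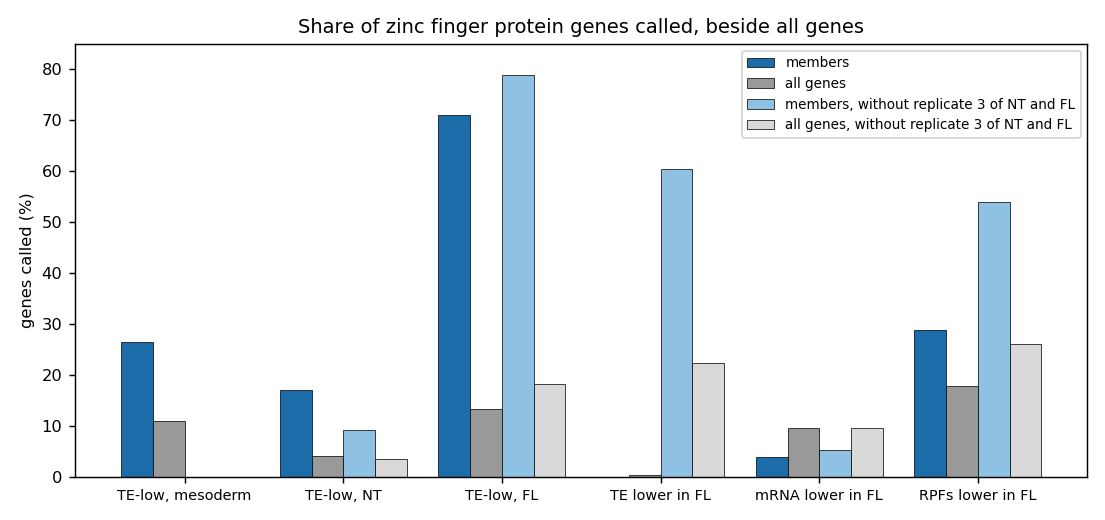
Bars give the share of genes called (y axis, %) in 6 tests: blue bars are zinc finger genes, tissue-listed for the mesoderm and mesoderm-listed for the others, and grey bars are all genes of the table, with lighter bars for the fits without replicate 3 of NT and FL; the mesoderm-listed genes include the 28 of both lists. Of the mesoderm-listed genes, 71.1% were TE-low in FL beside 13.4% of all genes, and 3.95% had less mRNA in FL beside 9.49%. TE correlated between the tissues over all genes, so the listing enters the first share.

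The *Zbtb* genes encode BTB domain proteins, and of the 14, 9 mesoderm-listed genes could be tested in NT and FL. All 9 lay below the median gene in both tissues. In NT none was TE-low, 7 lay below the median at an adjusted p under 0.05, and the median was -1.10. Among all genes 4.13% were TE-low in NT and 15.1% lay below at that adjusted p. In FL 6 of 9 were TE-low with a median of -1.63, and of the 5 that were mesoderm-listed alone 2 were, beside 13.4% of all genes. *Zbtb4*, which binds methylated DNA, had a log2 TE of -2.74 ± 0.34 (SE, n = 3 replicates of each library type) in FL and -1.54 ± 0.34 in NT, and was in both lists. Its mesoderm value was the second lowest of the named genes, at -3.05 ± 0.24, and rested on 16, 23 and 21 RPF reads.

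*Zbtb20*, a repressor of hippocampal and liver gene programmes, was in both lists. Its mRNA measured 494, 1316 and 1206 normalized reads in NT and 157, 141 and 178 in FL. Normalized RPFs in NT were at 850, 954 and 483, whereas FL had 11.2, 2.13 and 52.3, from 7, 1 and 35 reads. The groups did not overlap in either measure, and FL replicate 3 was the highest of its group in RPFs. On the log2 scale, mRNA was lower in FL by -2.54 ± 0.75 (SE) and RPFs by -5.85 ± 0.75. The TE difference was -3.32 ± 1.06, and -4.76 without replicate 3.

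*Zbtb18*, a repressor needed for the development of cortical neurons, was also in both lists and had far more reads. In NT its mRNA was at 2876, 3991 and 3588 normalized reads and its RPFs at 2015, 1795 and 1402. In FL the mRNA was at 836, 980 and 1090 and the RPFs at 200, 132 and 254. No NT library fell within the FL range. The mRNA difference was -1.84 ± 0.26 log2 units and the RPF difference -3.18 ± 0.26. Its log2 TE was -1.04 in NT and -2.35 in FL, and -2.45 in the mesoderm, which gives a TE difference of -1.34 ± 0.36, and of -1.63 without replicate 3.

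*Zbtb16*, also known as Plzf and required for limb and axial skeletal patterning, was tissue-listed, so its NT and FL values are a description. Its mRNA was 634, 675 and 548 normalized reads in NT and 226, 240 and 255 in FL. Normalized RPFs reached 553, 655 and 518 in NT, whereas FL had 54.5, 57.5 and 209. FL replicate 3 thus stood far above the other 2 FL libraries in RPFs while its mRNA did not. In the mesoderm, where it could be tested, its log2 TE was -0.82 ± 0.20, with an adjusted p of 0.00351 and less than the 3-fold of a TE-low gene.

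Of the other *Zbtb* genes, *Zbtb17*, known as Miz1 and a partner of Myc, had log2 TE of -1.66, -1.39 and -1.32 in NT and -0.71, -0.95 and -0.95 in FL. It was the 1 *Zbtb* gene of the NT and FL table with a fitted TE difference above 0, by 0.57 ± 0.28 (adjusted p 0.292 in limma). *Zbtb48*, a telomere-binding factor, was at -1.29 ± 0.26 in NT and -1.63 ± 0.26 in FL, and *Zbtb49* at -1.16 ± 0.32 and -1.63 ± 0.32. Both were TE-low in FL. *Zbtb22* and *Zbtb7a* were below the median in FL at -1.33 and -1.55, short of 3-fold. *Zbtb41*, a gene of both lists, had a log2 TE of -2.11 ± 0.48 in FL and an RPF difference of -1.24 ± 0.48, given as a description. The tissue-listed *Zbtb6* and *Zbtb26* had mesoderm log2 TE of -0.53 ± 0.25 and -1.24 ± 0.20, with adjusted p of 0.0882 and 0.000323. *Zbtb42* was outside the mesoderm table, and its RPFs measured 134, 115 and 322 normalized reads in NT and 0, 44.8 and 23.9 in FL, the latter from 0, 21 and 16 reads. The groups did not overlap. *Zbtb7c*, measured in the mesoderm alone, had a log2 TE of -1.33 ± 0.31 from 14, 10 and 21 RPF reads.

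**Figure D4:**
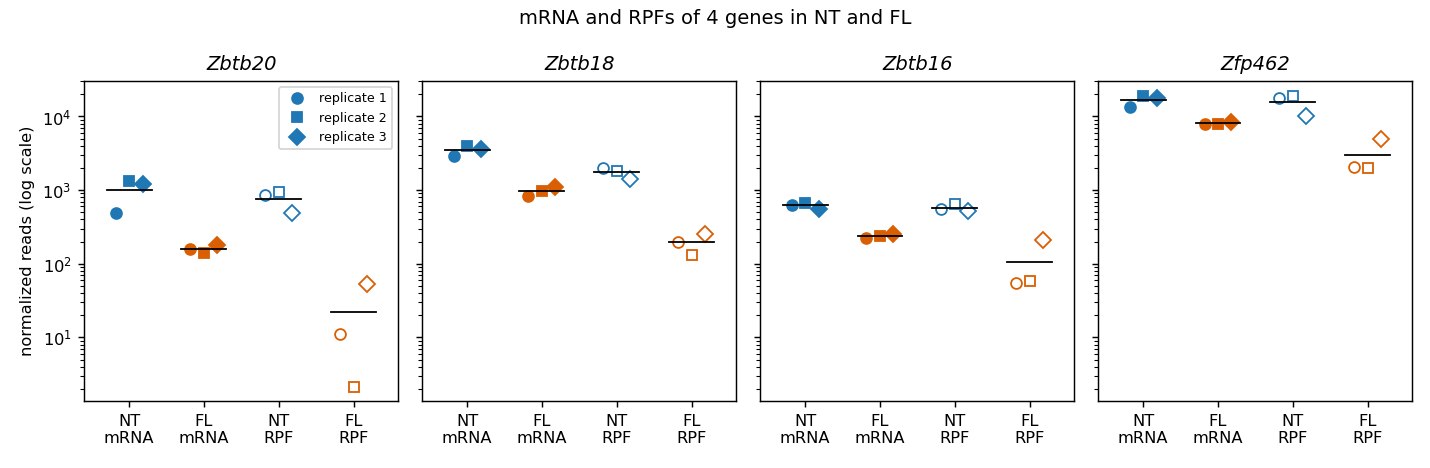
Normalized reads (y axis, log scale) of *Zbtb20*, *Zbtb18*, *Zbtb16* and *Zfp462* in NT and FL, with 1 point per library, filled for mRNA and open for RPFs, and a line at the mean of 3 replicates. In these 4 genes the FL libraries lay below the NT libraries in both measures, and FL Ribo-Seq replicate 3 (diamond) was the highest of the 3 FL Ribo-Seq libraries.

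The *Zkscan* genes encode proteins with a SCAN domain, through which they pair, beside a row of fingers. *Zkscan5* held nearly the same TE in all 9 pairs of libraries, with log2 values of -1.75, -1.71 and -1.58 in the mesoderm, -1.44, -1.55 and -1.47 in NT and -1.44, -1.52 and -1.61 in FL. Its difference between FL and NT was -0.06 ± 0.34. *Zkscan7* was TE-low in FL at -2.04 ± 0.38, and at -1.42 ± 0.38 in NT. *Zkscan2*, a gene of both lists, was at -1.78 ± 0.52 in FL, and its NT pairs ranged from 0.73 in replicate 1 to -2.27 in replicate 3. *Zkscan16* was in the mesoderm table alone, at -1.40 ± 0.28.

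The *Zfp* genes with a recognised KRAB domain were the largest class. In FL, 25 of 30 mesoderm-listed genes of this class were TE-low with a median of -2.14, where 13.4% of all genes were. In NT 3 of 30 were, with a median of -0.83, where 4.13% of all genes were. The fitted FL minus NT difference in TE was below 0 for 30 of 30, with a median of -1.12. Of the 30, 16 were in both lists, so listed for this difference, and the 14 that were not had a median of -0.85. The 16 also enter the FL count, since 27 of the 28 genes of both lists were TE-low in FL. In NT 2 of the 14 were TE-low, with a median of -0.95. The KRAB and other *Zfp* classes differ in their share of genes of both lists, so their values are not compared. None of the 30 passed with all libraries. Without replicate 3, 8 of the 14 did, where 22.3% of all genes were called lower, and all 16 of both lists did. The mRNA difference had a median of 0.15, with 1 of 30 genes called lower, where 9.49% of all genes were. RPFs were lower in FL for 11 of 30, 5 of them among the 14, where 17.8% of all genes were called lower. Among tissue-listed genes of the class, 11 of 41 were TE-low in the mesoderm with a median of -1.07, where 10.9% of all genes were TE-low.

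*Zfp811* was the KRAB gene among the 3 above, and its values are a description, since it was in both lists. It measured 429, 1769 and 1164 normalized mRNA reads in NT and 190, 246 and 206 in FL, and 951, 872 and 312 RPFs in NT against 60.9, 19.2 and 70.2 in FL. The groups did not overlap in either. The mRNA difference was -2.17 ± 0.58 and the RPF difference -3.84 ± 0.58. In NT RNA-Seq replicate 1 it was far below the other 2 NT libraries, and its NT log2 TE was 1.15 in replicate 1 and -1.05 and -1.97 in the others.

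*Zfp949* and *Zfp810* had the lowest TE of the KRAB genes in FL. *Zfp949*, a gene of both lists, was at -3.79 ± 0.61, with 751, 608 and 736 normalized mRNA reads against 60.9, 27.7 and 71.7 RPFs. *Zfp810* was at -3.06 ± 0.45 in FL (adjusted p 0.000256 in limma), with 473, 514 and 420 mRNA reads against 69.0, 29.8 and 82.1 RPFs. In both, the highest RPF value lay well below the lowest mRNA value. *Zfp810* was also TE-low in NT, at -2.31 ± 0.45 (adjusted p 0.00328), and without replicate 3, at -2.12. *Zfp949* was at -2.38 ± 0.61 in NT. The mesoderm value of *Zfp810*, at -3.28 ± 0.25, was the lowest of the 79.

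The genes that hold the shared stretches shown above did not behave as 1 group. *Zfp426* was TE-low in NT at -1.60 ± 0.43 and in FL at -2.36 ± 0.43, and 4.48% of its windows were shared. The tissue-listed *Zfp60*, with 15.0% of its windows shared, had mesoderm log2 TE of -0.59, -1.31 and -0.49, and *Zfp113*, with 3.33%, had -0.11, -0.48 and -0.42. *Zfp932*, with most of its windows shared, was TE-low in FL at -1.97 ± 0.54, and not without replicate 3, with an adjusted p of 0.0527. Of mesoderm-listed genes with under 5% shared windows, 46 of 65 were TE-low in FL, and of those with 5% or more, 6 of 9. Among all genes 13.4% were. The median log2 TE was -1.84 and -1.97.

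*Zfp445*, a KRAB protein that guards genomic imprints, was in both lists. It was at -2.41 in FL and -0.55 in NT, with RPFs lower in FL by -1.56.

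Among mesoderm-listed *Zfp* genes without a recognised KRAB domain, 19 of 32 were TE-low in FL with a median of -1.73, where 13.4% of all genes were. In NT 10 of 32 were, with a median of -1.20, where 4.13% of all genes were. The TE difference between FL and NT was below 0 for 25 of 32, with a median of -0.45, and 13 were called lower without replicate 3. Of the 27 of these that were mesoderm-listed alone, 20 were below 0 with a median of -0.31, and 8 were called lower without replicate 3. In that fit 22.3% of all genes were called lower, a share not far from 8 of 27. The rest of the 32 were listed for this difference, which enters the count of 13. Several held a low TE in each tissue. *Zfp523* had log2 TE of -2.62, -2.27 and -2.40 in the mesoderm, -2.26, -1.96 and -2.39 in NT, and -1.63, -1.47 and -1.90 in FL. It was TE-low in NT at an adjusted p of 9.63e-05 in limma and in FL at 0.000212, and without replicate 3 the FL value of -1.56 was just short of 3-fold. *Zfp408*, a gene of retinal vessel development, had -1.86, -1.68 and -1.65 in NT and -2.67, -1.67 and -1.73 in FL, and was TE-low in both tissues with and without replicate 3. *Zfp664* was at -1.70 in NT and -1.85 in FL. Among the TE-low genes nearest to 3-fold in size, *Zfp180* was at -1.67 ± 0.27 and *Zfp420* at -1.79 ± 0.49 in NT. In FL *Zfp827* was at -1.61, as was *Zfp28*, which has a recognised KRAB domain. RPFs of *Zfp532* were lower in FL by -1.12 ± 0.25 (adjusted p 0.00328 in limma). In the mesoderm, as a description, *Zfp61* was at -2.59 and *Zfp27* at -1.64, and the KRAB genes *Zfp68* and *Zfp160* were at -1.64 and -1.62. Of the tissue-listed KRAB genes, *Zfp952* was at -1.60 in FL, and RPFs of *Zfp954* were lower there by -1.10.

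*Zfp605* had the lowest NT value of the genes with at least 100 normalized reads, at -2.52 ± 0.61 (adjusted p 0.0105 in limma). Its pairs were -0.94, -2.95 and -3.68, and without replicate 3 it was at -1.97 with an adjusted p of 0.0657. *Zfp277*, which binds Bmi1 and limits senescence, was the most abundant of the genes per kb in NT and FL. It measured 4973, 4645 and 4069 normalized mRNA reads in NT against 1639, 1382 and 691 RPFs, and 3577, 4442 and 5185 in FL against 1685, 1145 and 788. In both tissues it was TE-low, at -2.0 ± 0.33 and -1.92 ± 0.33, and 12.2% of its windows were shared with other genes.

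The genes with known roles in this class had the following values. *Zfpm1*, or Fog1, the cofactor of Gata1 in blood development, was at -0.99 ± 0.24 in NT and -0.84 ± 0.24 in FL, below the median in both (adjusted p 0.01 and 0.00887 in limma), and its mRNA was lower in FL by -0.99 ± 0.24, just short of 2-fold. *Zfp335*, a gene of microcephaly and neural progenitor renewal, was at -1.38 ± 0.26 in NT and -0.91 ± 0.26 in FL. *Zfp292* is a large transcription factor with a CDS of 8097 nt, the longest of the genes. It measured 2616, 8336 and 6168 normalized mRNA reads in NT and 5916, 5521 and 2002 RPFs, so that its NT log2 TE was 1.18, -0.62 and -1.69. In FL its RPFs were 548, 599 and 2608 and its log2 TE -3.18, -3.13 and -1.23. The order of its tissues thus turned between replicates 1 and 2 on one side and replicate 3 on the other: in replicate 3 its RPFs were higher in FL than in NT.

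The tissue-listed *Zfp462*, a chromatin regulator of the neural lineage, was among the most abundant of the genes. Its mRNA measured 13385, 19198 and 17920 normalized reads in NT and 7900, 7961 and 8311 in FL. Its RPFs measured 18011, 18802 and 10055 in NT and 2078, 1978 and 4925 in FL. All NT libraries lay above all FL libraries in both. In the mesoderm its log2 TE was -1.06 ± 0.18 (adjusted p 0.000452 in limma), and it was not TE-low. *Zfp365* was the mesoderm-listed gene with RPFs called higher in FL, by 2.51 ± 0.89 (adjusted p 0.0355). It had 12, 26 and 0 RPF reads in NT and 17, 18 and 23 in FL, and without replicate 3 the adjusted p was 0.108.

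The 11 tissue-listed genes with higher TE in FL are described by their structure, which the list did not use. They held 1 to 8 fingers and a CDS of 231 to 1431 nt, with a median of 900 nt against 1962 nt for the annotated tissue-listed genes with higher TE in NT. No KRAB domain was found in them, and the median GC content of their CDS was 60.6%, against 43.7%. The 22 tissue-listed *Zfp* genes without a recognised KRAB domain, which include these 11, had medians of 1270.5 nt and 54.55%. Those with a recognised KRAB domain had 1848 nt and 43.4%, so class enters the contrast. *Zfp706*, which helps embryonic stem cells to leave self-renewal and has the shortest CDS of the set, measured 365, 458 and 429 normalized mRNA reads in NT and 343, 275 and 413 in FL, with 632, 714 and 455 RPFs in NT and 1214, 1025 and 835 in FL. Each FL library held more RPFs than each NT library. *Zfp593* had log2 TE of 1.70, 2.65 and 0.83 in FL and -0.42, 0.68 and 0.57 in NT. *Zfp622* had 1.86, 1.62 and 0.09 in FL and -0.24, 0.60 and 0.20 in NT. *Zfp830* had 2.15, 1.58 and 0.23 in FL and 0.09, 0.05 and -0.02 in NT. In *Zfp593*, *Zfp622* and *Zfp830* the value of FL replicate 3 was the lowest of the 3. *Zfp771* had 597, 487 and 1441 RPFs in NT and 2846, 3935 and 1235 in FL, and in replicate 3 the order of the tissues was turned.

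At the edges of the lists the values ran together. The mesoderm-listed genes nearest the threshold were *Zfp365*, *Zfp473* and *Zfp609*, each at -1.33, while *Zfp59*, *Zfp719* and *Zfp518a*, which were not in that list, were at -1.43, -1.39 and -1.34. In the tissue list, *Zfp933*, *Zfp873* and *Zfp940* had the smallest differences among genes with higher TE in NT, at -0.06, -0.38 and -0.99. *Zfp932*, *Zfp169* and *Zfp658*, which were outside it, were at -1.20, -1.15 and -1.09.

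The proteins that KRAB and BTB factors recruit were measured beside them. Of 30 co-repressor symbols, 10 were found, 1 of them with 2 transcripts. Their symbols come from the same lists, so the counts are in part set by the listing. In the mesoderm 4 of 11 transcripts were TE-low and 1 TE-high, in NT 1 was TE-low, and in FL 6 were TE-low and 1 TE-high. The NT call was 1 of the 2 *Chd3* transcripts, from 7, 17 and 4 RPF reads. In the mesoderm and FL both *Chd3* transcripts were counted as TE-low. This one had 1, 2 and 3 RPF reads in the mesoderm and 11, 3 and 10 in FL. Among all genes 10.9%, 4.13% and 13.4% were TE-low in these tissues. *Ncor1*, which binds BTB domains, was at -1.70 in the mesoderm, -1.16 in NT and -1.91 in FL, and *Setdb1*, the methyltransferase of the KRAB pathway, at -1.41, -0.32 and -1.70. *Cbx3*, a heterochromatin protein, was at 1.64, 1.49 and 1.76. None of the 11 had a called mRNA difference between FL and NT. Of 77 other zinc finger genes with different symbols, 35 were found, again through the lists. In the mesoderm 15 of 35 were TE-low, in NT 6 of 34 and in FL 18 of 34, beside the same shares of all genes. The listing enters these counts too, so they are a description. Of these 34, 4 (11.8%) had less mRNA and 5 (14.7%) more mRNA in FL, where 9.49% and 7.82% of all genes did, among them *Gli1*, an effector of Shh signalling, with 2.29 log2 units more in FL (adjusted p 7.95e-06 in limma).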

How the data were processed

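Ribo-Seq and RNA-Seq of mesoderm, NT and FL were taken from the 2 deposited tables of normalized reads, 1 for the mesoderm (12064 genes, 6 libraries) and 1 for NT and FL (11231 genes, 12 libraries). The authors used cutadapt for trimming, removed what matched rRNA, tRNA or snRNA, and kept unique alignments to canonical UCSC known genes of mm10. RPFs were placed at the A site. Counting left out 15 codons at the start and 5 at the end of each CDS, and the authors divided these counts by the DESeq effective library size, which gave the signal values that were deposited. The processing notes also name Bowtie2. Versions are not given in the sources used here. The tables were normalized separately, and only TE was set across them. In all 18 libraries every value was a whole multiple of 1 step within a tolerance of 0.1, so whole reads were recovered.

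log2(normalized reads + 1) was fitted with limma 3.58.1 (R 4.3.3) with an intensity trend over all genes, and p-values were adjusted by Benjamini-Hochberg over all genes of the table. Adding 1 understates the change of genes with few reads. Mesoderm TE was the Ribo-Seq over RNA-Seq coefficient with the replicate as a block. NT TE, FL TE and the FL minus NT contrasts came from 1 fit of 4 group means without a block. TE values were tested against their median, and TE-low and TE-high genes passed 0.05 (adjusted p) and differed 3-fold or more. FL minus NT TE was called at an adjusted p under 0.2 and 2-fold, mRNA and RPFs at 0.05 and 2-fold. Errors in the text are SE of the fit. edgeR 4.0.16 and DESeq2 1.42.0 on the recovered reads were alternatives. The fits were tested on simulated data. Python 3.11.15 was used for the rest.

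The replicate numbers pair mesoderm libraries, which share sorted cells, and their deviations from the group means correlated at 0.74, 0.58 and 0.57; without the block, fewer genes passed the adjusted p in the mesoderm. The study calls the replicates biological. The methods have dissociated NT cells divided between Ribo-Seq and RNA-Seq, but do not say that a number marks the same cells or embryos in NT and FL, and those fits had no block; blocked fits were alternatives.

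The genes, lists and tests were chosen with earlier results of these data known. Genes were named if they were *Zbtb* or *Zkscan* genes, were of known function, or were among the 5 largest or 5 smallest called values of a test, with 1 sign in all 3 replicates and a mean of at least 100 normalized reads; members with opposite signs of TE in NT and FL were named too. Other genes in the text, such as *Zfp113*, *Zfp771*, *Zfp873*, *Zfp932*, the co-repressors and those at the edges of the lists, were named after their values were seen. Positions, fingers and shared windows came from GENCODE M21 and the RefSeq sequence of GRCm38, whose isoforms can differ from those of the authors, and 131 of 133 symbols matched. Markers of neural tube (3 of 19 found), limb bud and mesoderm (5 of 22), epithelium (1 of 6) and endothelium (2 of 4) checked the labels, and no blood marker was found.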

Additional observations from a re-analysis of the deposited data

Results flagged for a closer look

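In *Zfp84*, a KRAB gene, log2 TE lay above the median gene in each NT replicate, at 1.09, 0.49 and 0.09, and below it in each FL replicate, at -2.63, -1.28 and -0.04. The FL minus NT difference was -1.89, and -2.75 without replicate 3. *Zfp787* had the opposite pattern, below the median in NT at -0.92, -0.12 and -0.11 and above it in FL at 1.29, 1.23 and 0.02, with a difference of 1.21, and 1.78 without replicate 3. Among all genes of the table, 88 (0.784%) lay above in NT and below in FL in each replicate, as *Zfp84* did, and 120 (1.07%) the other way, as *Zfp787* did. Both genes were listed for this difference, so the pattern is a description and the difference was not tested. In both, the gap was narrowest in replicate 3.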

How the results depend on the processing

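The pseudocounts of 0.1 and 8, the filter at a mean of 100 normalized reads, edgeR and DESeq2 moved none of the counts of calls by over 1.5 times, except that DESeq2 called 6 mesoderm-listed genes lower in FL by TE, where limma and edgeR called 0. Looser folds gave 41 TE-low genes in the mesoderm and 36 in NT at 2-fold, and 5 genes with less mRNA in FL at 1.5-fold. At 2-fold, 21.5% of all genes were TE-low in the mesoderm and 11% in NT. Leaving out 1 replicate gave 17 to 22 TE-low genes in the mesoderm, 6 to 20 in NT (7 without replicate 3 of both tissues) and 36 to 60 in FL. The shares of all genes in these fits ran from 9.62% to 11.8%, 2.40% to 4.35% and 8.16% to 18.2%. For FL minus NT, leaving out 1 replicate gave 0 to 46 genes with lower TE (28 without FL replicate 3). It gave 1 to 4 with less mRNA and 6 to 41 with fewer RPFs (9 without FL replicate 2). The count for mRNA was 1 without FL replicate 1, without NT replicate 2 or without replicate 2 of both tissues. The cause of these changes was not tested. The replicate block moved no count of TE-low genes or of FL minus NT calls by over 1.5 times: without it, 15 tissue-listed genes were TE-low in the mesoderm, but with no fold threshold the count below the median there fell from 55 to 20 of 72 and that above from 5 to 3. The blocked fit is the one the paired sorted cells call for. Elsewhere, with the block, 12 mesoderm-listed genes were TE-low in NT, 54 in FL, and 0, 3 and 18 had lower TE, mRNA and RPFs in FL. With the block, 3.85% of all genes were TE-low in NT and 13.3% in FL. Deviations from the group means of same-numbered Ribo-Seq and RNA-Seq libraries correlated at -0.28, 0.35 and 0.05 in NT and at 0.05, 0.12 and 0.09 in FL, and those of NT and FL at -0.29, -0.50 and -0.58 in Ribo-Seq. Pairing the libraries within each tissue gave 13 and 55 TE-low genes in NT and FL and 0 with lower TE in FL. In that fit 4.12% and 13.4% of all genes were TE-low in NT and FL. Of the values of single named genes, 960 of 1130 stayed on the same side of their threshold and 170 no longer passed it, and none turned direction. Genes with 10 or fewer RPF reads limit the precision of TE.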
